A study of Mus musculus with 8 samples.

Results

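The solute carrier (SLC) genes measured in mouse colon are described here: all genes on the array whose symbol has the form Slc, a family number, a letter and a member number. The rule uses the symbol alone and no measured value. Of 12422 probe sets on the array, 10833 carry 1 gene symbol, and 184 of these read a gene of this form. They belong to 150 genes in 39 families. For each gene, the probe set with the highest mean over the 8 arrays was used; 29 genes had a choice of several and 121 had 1. Of the 150 genes, 147 encode carriers or their subunits, which fall into 16 substrate classes by family number. The other 3, Slc4a1ap, Slc9a3r1 and Slc9a3r2, encode adaptor proteins and no carrier, and are given apart.

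Solute carriers are membrane proteins that move sugars, amino acids, ions, vitamins, metals and metabolites across the plasma membrane or the membranes of organelles. Their genes are numbered by family, so that Slc7a9 is a member of family SLC7. In the colon, carriers of the epithelium exchange chloride and bicarbonate, take up short-chain fatty acids and bring in nutrients for the cells themselves. Carriers of the Golgi apparatus and endoplasmic reticulum supply the nucleotide sugars from which mucus and cell-surface glycans are built, and those of the mitochondrion move metabolites and nucleotides across its inner membrane.

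RNA of whole mouse colon was hybridised to Affymetrix MG_U74Av2 arrays, 1 array for each of 8 pools. The 4 groups were C57BL/6J wild type, C57BL/6J Il10-null, C3H/HeJBir wild type and C3H/HeJBir Il10-null, with 2 pools each, called sample 1 and sample 2 as in the labels. The null allele is Il10tm1Cgn, a targeted disruption of the gene of interleukin-10, a cytokine that restrains inflammation in the gut. C3H/HeJBir is a substrain of C3H/HeJ, which carries a defective Tlr4 gene. Each pool combined 7 µg of RNA from each of 5 animals in the C57BL/6J groups and in sample 1 of the C3H/HeJBir Il10-null group, and from each of 4 animals in the 3 remaining pools. An age, 4 weeks, is given for the C57BL/6J wild-type sample 2 pool alone, and the labels give no sex. The labels call sample 2 an independent replicate, and nothing further says how separate the pools are, so p-values here reflect pool-to-pool spread, which may be technical.

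The arrays had been brought to 1 level by the authors, and their median intensities lay between 50.1 and 62.2. The probe set of Il10 read 5.43 to 10.9 in the 4 wild-type pools and 22.03 to 51.7 in the 4 pools labelled Il10-null, with a mean below the filter used for testing. The sources used here do not say whether this probe set lies inside the disrupted part of the gene, so it does not check the labels, and pools are named as labelled. Of 14 colonocyte markers, 12 were on the array and 11 passed the filter (all but Guca2a), with sums of 37554 to 48149. The sample 1 pools of the Il10-null groups were hybridised on one day, those of the wild-type groups on another, and all sample 2 pools on the third. Strains are therefore balanced within each day, whereas Il10 genotypes share a day in sample 2 alone. Xist, the RNA of the inactive X chromosome, had intensities of 243 to 452 in sample 1 and of 2.84 to 12.9 in sample 2. Eif2s3y, a gene of the Y chromosome, read 39.65 and 113 in the sample 1 pools of C57BL/6J wild type and Il10-null. In those of C3H/HeJBir it read 318 and 242. In sample 2 it read 256 and 263 in C57BL/6J and 411 and 391 in C3H/HeJBir. Within each sample number the C3H/HeJBir values of Eif2s3y were thus the higher ones. The C3H/HeJBir Il10-null sample 1 pool stood furthest from the rest, with a mean Spearman correlation of 0.915 to the other arrays against 0.931 to 0.945 for those.

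A filter on low values (a mean of at least 37.03, the 40th percentile of all probe sets) left 102 of the 150 transporter genes for testing, or 68.0%, against 7453 of 12422 probe sets over the whole array. Differences were fitted with limma on the log2(intensity + 11.1) scale and are given with their standard error, and a gene was called where its adjusted p over all 7453 tested probe sets was under 0.05. The adjustment is Benjamini-Hochberg throughout. On this scale the change of a low gene is understated.

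Between the strains, averaged over both genotypes and given as C3H/HeJBir minus C57BL/6J, 1 of the 102 transporter genes was called: Slc1a5, lower in C3H/HeJBir. Over all probe sets the same comparison called 1.11%, 0.698% lower and 0.416% higher. The median difference of the transporter genes was -0.04, beside -0.02 over all probe sets, with 44 genes positive and 58 negative. An unadjusted p under 0.05 was reached by 8 transporter genes, or 7.84%, beside 8.43% of all probe sets. Both shares lie near the background of the array. Within wild type no transporter gene was called by limma (0.403% of all probe sets) and 4 had an unadjusted p under 0.05, or 3.92%, beside 5.68% of all. Within Il10-null none was called (0.295% of all) and 5 had such a p, or 4.90%, beside 5.17% of all.

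For the Il10 genotype, given as Il10-null minus wild type, limma called 0 transporter genes in C57BL/6J (0.0% of all probe sets), 0 in C3H/HeJBir (0.0134% of all) and 0 for the average of both (0.0% of all). Unadjusted p-values under 0.05 were found for 1, 5 and 3 transporter genes in that order, or 0.98%, 4.90% and 2.94%, beside 1.58%, 2.83% and 3.09% of all probe sets. The interaction of strain and genotype (the Il10 effect in C3H/HeJBir minus that in C57BL/6J) gave 0 called (0.0% of all) and 0 with an unadjusted p under 0.05 (112 of all 7453 probe sets). The intervals say what could have been seen in this fit. It has no block, so shifts between sample 1 and sample 2 count as spread. The median half-width of the 95% confidence interval was 0.50 for the average effects and 0.70 for an Il10 effect within a strain. For the interaction it was 1.00, all in log2 units. For a typical gene, a difference smaller than its half-width has an interval that includes 0.

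**Figure D1:**
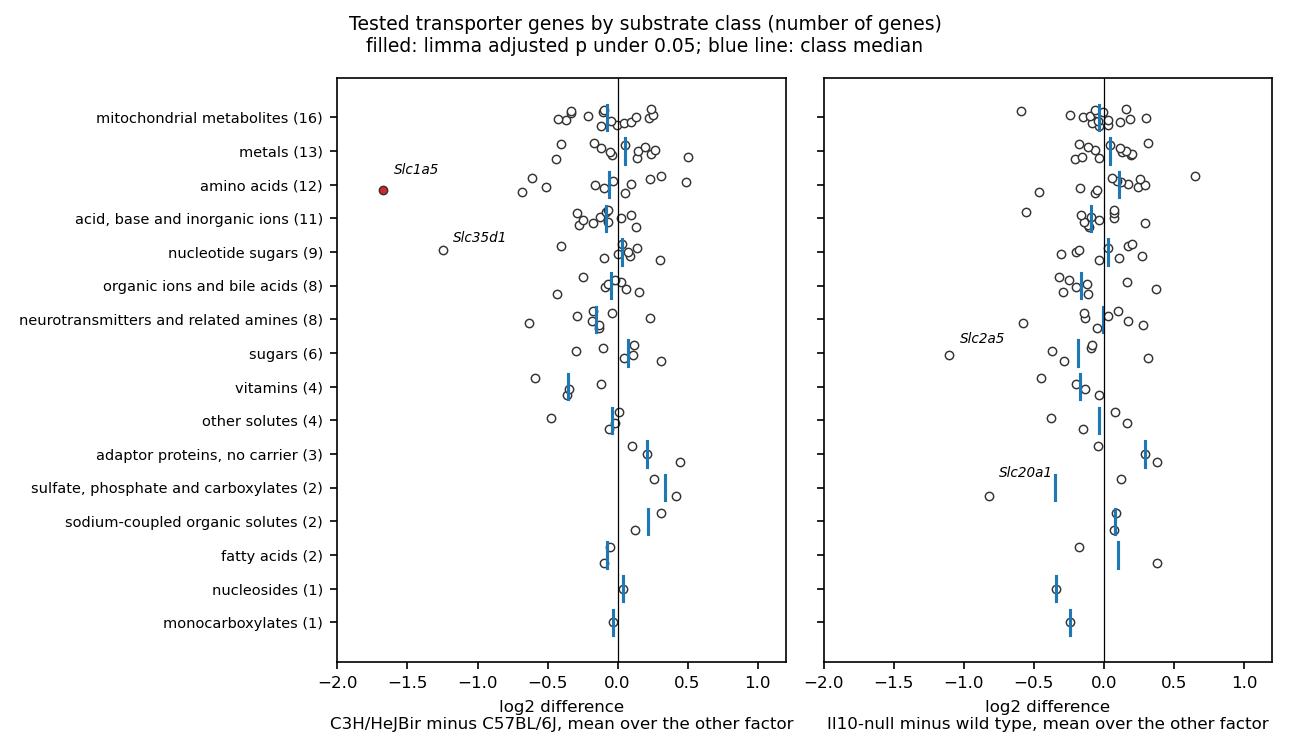
Log2 differences of the 102 tested transporter genes by substrate class, for the average strain effect (C3H/HeJBir minus C57BL/6J) and the average Il10 effect (Il10-null minus wild type). Each point is a gene, a filled point is one called by limma and the blue line is the class median; the single filled point is Slc1a5 at -1.67 among the amino acid carriers, and most genes lie near 0.

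The amino acid carriers held the one called gene. Slc1a5, the sodium-dependent exchanger of neutral amino acids that carries glutamine, read 203 and 161 in C57BL/6J wild type, 242 and 135 in C57BL/6J Il10-null, 57.6 and 46 in C3H/HeJBir wild type, and 69.2 and 31.1 in C3H/HeJBir Il10-null (sample 1 and sample 2 in each group). All 4 C3H/HeJBir pools, at 31.1 to 69.2, lay below all 4 C57BL/6J pools, at 135 to 242. The average strain difference was -1.67 ± 0.27 (95% confidence interval -2.29 to -1.06, limma adjusted p = 0.0278). It was -1.62 ± 0.38 within wild type (adjusted p = 0.241) and -1.73 ± 0.38 within Il10-null (adjusted p = 0.182), of like size but not called within either genotype. Each pair of pools hybridised on the same day with the same genotype showed it: -1.64 and -1.59 in wild type, -1.66 and -1.80 in Il10-null.

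No Il10 effect was called for Slc1a5, at 0.00 ± 0.38 in C57BL/6J and -0.11 ± 0.38 in C3H/HeJBir. Sample 1 pools were above sample 2 pools in all 4 groups. The call of Slc1a5 was lost when any one of 5 of the 8 pools was left out. Leaving out a C57BL/6J wild-type pool gave an adjusted p of 0.127 (sample 1) or 0.0859 (sample 2). Without C57BL/6J Il10-null sample 1 it was 0.112, and without a C3H/HeJBir wild-type pool 0.0926 (sample 1) or 0.128 (sample 2). With no filter on low values it was 0.0589, where more probe sets were tested and the standard error was 0.278 against 0.268. The log2 difference stayed between -1.90 and -1.16 under every alternative run. A single probe set reads Slc1a5, so no second one checks it.

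In RNA of whole tissue, fewer cells of a type and less RNA per cell cannot be told apart. The summed levels of some marker lists also differed between the strains. The summed level of the 10 macrophage markers on the array (of 11 listed, 8 of them past the filter, Adgre1 and Mrc1 below it) was 1587 to 2017 in the C57BL/6J pools and 3225 to 5633 in the C3H/HeJBir pools. Of the 8 tested, 5 had a positive and 3 a negative strain difference, with a median of 0.10, and the one called was Cd14, at 2.42. The 8 goblet cell markers on the array (of 10, all past the filter) summed to 37070 to 40467 and 42960 to 49901. Here 3 were positive and 5 negative, with a median of -0.08, and the one called was Retnlb, at 3.03, so neither sum stands for its list as a whole. The colonocyte markers overlapped, at 41765 to 44501 and 37554 to 48149. The part of these cells in the Slc1a5 difference was not tested.

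Of the other 11 amino acid carriers tested, 3 had an unadjusted p under 0.05 between strains and none was called. Slc38a2, a sodium-coupled carrier of small neutral amino acids including glutamine, read 244 and 200.4 in C57BL/6J wild type, 317 and 246 in C57BL/6J Il10-null, 164 and 159 in C3H/HeJBir wild type, and 167 and 198 in C3H/HeJBir Il10-null. Its 4 C3H/HeJBir pools lay just below its 4 C57BL/6J pools (the highest 198, the lowest 200.4), and the difference was -0.51 ± 0.17 (adjusted p = 0.358).

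Slc7a7, the light chain of the basolateral exporter of arginine and lysine, read 329 and 192 in C57BL/6J wild type, 234 and 253 in C57BL/6J Il10-null, 149 and 149 in C3H/HeJBir wild type, and 169 and 167 in C3H/HeJBir Il10-null. Its groups also did not overlap between strains, and the difference was -0.61 ± 0.20 (adjusted p = 0.333). The heavy chain with which it pairs, Slc3a2, differed by -0.03 ± 0.19. Slc7a5, another light-chain partner of Slc3a2 that carries large neutral amino acids, differed by 0.23 ± 0.23.

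Slc3a1 and Slc7a9 are the heavy and light chain of the apical carrier of cystine and basic amino acids. Slc3a1 read 176 and 108 in C57BL/6J wild type, 152 and 122 in C57BL/6J Il10-null, 173 and 184 in C3H/HeJBir wild type, and 260.1 and 183 in C3H/HeJBir Il10-null, and differed by 0.49 ± 0.21 between strains (adjusted p = 0.575); its groups overlapped. Slc7a9 differed by 0.31 ± 0.21 between strains on average, and its levels are given with the Il10 comparisons. Slc1a4, a neutral amino acid exchanger of the same family as Slc1a5, differed by -0.69 ± 0.35 (adjusted p = 0.713) with overlapping pools, the C3H/HeJBir Il10-null sample 1 pool lowest at 42.8 and the other 7 at 128 to 231. The glutamate carrier Slc1a1 and the amino acid carriers Slc38a4, Slc38a5 and Slc38a10 had differences of -0.16 to 0.10. Over the 12 amino acid carriers the strain differences had a median of -0.06, with 5 positive and 7 negative.

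**Figure D2:**
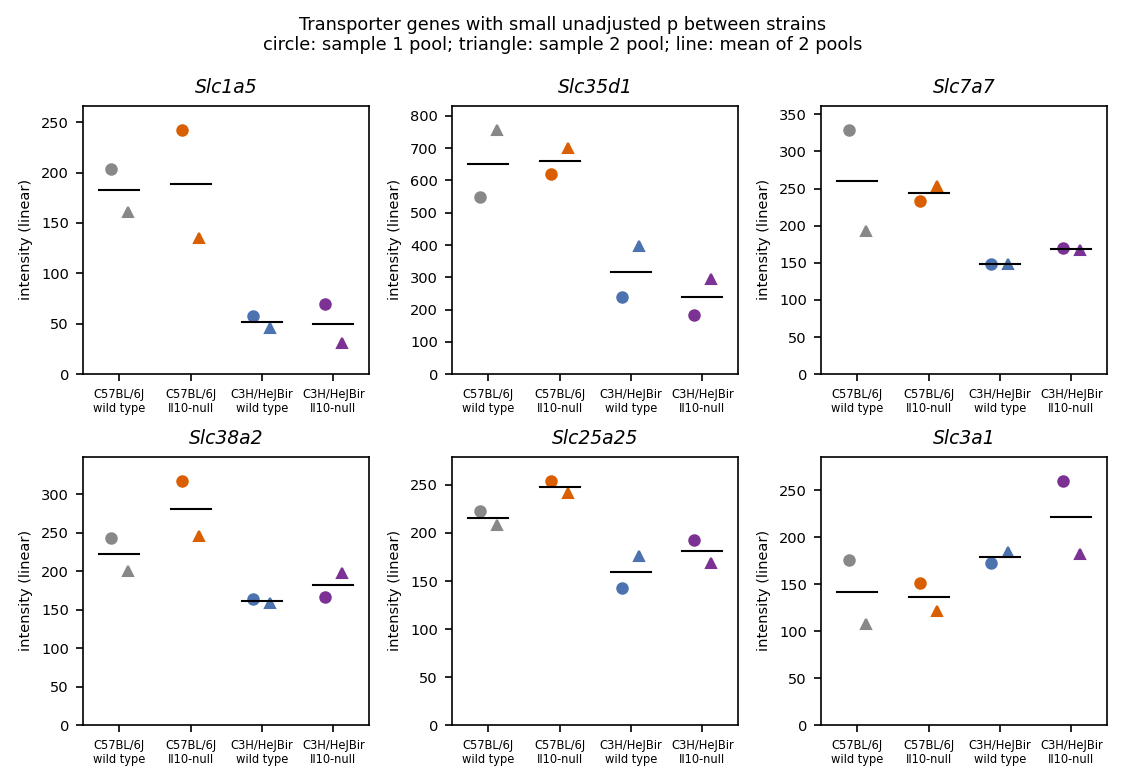
Intensity in each pool (linear axis from 0) of 6 transporter genes with an unadjusted p under 0.05 between the strains, of which Slc1a5 alone was called; circles are sample 1 pools, triangles sample 2 pools and lines the mean of 2 pools. For Slc1a5, Slc35d1, Slc7a7, Slc38a2 and Slc25a25 all C3H/HeJBir points lie below all C57BL/6J points, whereas those of Slc3a1 overlap.

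Nucleotide sugar carriers held the next largest strain difference. Slc35d1, named here after its values were seen, which brings UDP-glucuronic acid and UDP-N-acetylgalactosamine into the endoplasmic reticulum, read 549 and 757 in C57BL/6J wild type, 621 and 699 in C57BL/6J Il10-null, 238 and 398 in C3H/HeJBir wild type, and 184 and 294 in C3H/HeJBir Il10-null. The C3H/HeJBir pools, at 184 to 398, lay below the C57BL/6J pools, at 549 to 757, in both genotypes. The average strain difference was -1.25 ± 0.24 (95% confidence interval -1.79 to -0.70, limma adjusted p = 0.0573), just short of the threshold. It was -1.04 ± 0.34 within wild type and -1.46 ± 0.34 within Il10-null, and -1.17, -0.91, -1.69 and -1.22 in the 4 pairs of pools of the same day and genotype.

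With the sample number as a block, which pairs the pools, Slc35d1 passed, at an adjusted p of 0.0133, and so it did with the hybridisation day as a block, at 0.0420. The fit with the sample number as a block raised the count of called transporter genes from 1 to 2 and brought Slc1a5 to 0.00701. Over all 7453 tested probe sets the count rose from 83 to 96. Over all alternatives the adjusted p of Slc35d1 ran from 0.0133 to 0.310, and its log2 difference from -1.43 to -1.07. It, too, is read by 1 probe set.

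The other 8 tested genes of family SLC35, classed as nucleotide sugar carriers by family number alone, had smaller differences, none of them called. Slc35a1, which carries the sialic acid donor CMP-sialic acid, differed by 0.30 ± 0.18 between strains, and Slc35a2, which carries UDP-galactose, by -0.10 ± 0.16. Slc35b2, the carrier of the sulfate donor PAPS, differed by 0.00 ± 0.17. Slc35b1 (729.6 to 1262 over the 8 pools), Slc35c2, Slc35e1, Slc35e4 and Slc35g3 had differences of -0.40 to 0.14. The class median was 0.03 between strains and 0.03 for the average Il10 effect, and none of the 9 had an unadjusted p under 0.05 for the Il10 effect.

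Carriers of salt and acid-base transport, the basis of chloride secretion and absorption by the colon, showed no called difference in any comparison. Slc12a2, the basolateral sodium-potassium-chloride cotransporter that loads crypt cells with chloride, read 959 and 871 in C57BL/6J wild type, 908 and 1184 in C57BL/6J Il10-null, 992 and 1509 in C3H/HeJBir wild type, and 604 and 1420.1 in C3H/HeJBir Il10-null. The strain difference was 0.13 ± 0.29 and the average Il10 effect -0.11 ± 0.29, with the C3H/HeJBir Il10-null sample 1 pool lowest of the 8. Slc4a2, the basolateral chloride-bicarbonate exchanger, was among the steadiest, at 498 to 651 over the 8 pools (strain -0.12 ± 0.16, Il10 -0.09 ± 0.16).

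Slc26a2, a sulfate carrier needed for sulfation of mucus and matrix glycans, ranged from 221 to 510.4, with differences of -0.25 ± 0.28 between strains and -0.03 ± 0.28 for Il10. The sodium-bicarbonate cotransporter Slc4a4 ranged from 33.5 to 55.7 and differed by -0.29 ± 0.17 between strains. Slc8a1, the sodium-calcium exchanger that is abundant in muscle, read 242 and 302 in C57BL/6J wild type, 179 and 240.1 in C57BL/6J Il10-null, 256 and 333 in C3H/HeJBir wild type, and 94.8 and 297 in C3H/HeJBir Il10-null. Its lowest value was again in the C3H/HeJBir Il10-null sample 1 pool, in which the smooth muscle markers (9 of 10 on the array, all tested) summed to 10031, beside 12150 to 17637 in the other pools; their part in the Slc8a1 value was not tested. The average Il10 effect of Slc8a1 was -0.56 ± 0.32 (adjusted p = 1.00), and -0.17 without that pool. In C3H/HeJBir the difference was -1.34 in sample 1 and -0.16 in sample 2, and the average over both strains was -0.14 with the probe sets of the gene averaged. The potassium-chloride cotransporters Slc12a4, Slc12a5 and Slc12a7, the anion exchangers Slc4a1 and Slc4a3 and the sodium-proton exchanger Slc9a8 had strain differences of -0.28 to 0.09. Their average Il10 differences were -0.16 to 0.30. For Slc4a1, a low probe set at 18.2 to 65.4, the average joins -0.46 in C57BL/6J and 0.61 in C3H/HeJBir. Its interaction, 1.07 ± 0.53 (limma adjusted p = 0.9995), was the largest of the 102 genes and was not called. The C57BL/6J difference of Slc4a1 was -0.89 in sample 1 and -0.04 in sample 2, which shares a day. Over the alternatives the interaction ran from 0.38 to 1.46. The 11 genes of this class had medians of -0.08 and -0.09.

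The adaptor Slc9a3r1, which anchors apical transporters to the cytoskeleton, read 1703 to 2479 in C57BL/6J and 1977 to 2884 in C3H/HeJBir, a difference of 0.21 ± 0.18. Its average Il10 effect was 0.30 ± 0.18 (adjusted p = 1.00). Slc9a3r2 differed by 0.11 ± 0.21 between strains. Slc4a1ap, a low probe set at 19.9 to 63.8, differed by 0.44 ± 0.19 (adjusted p = 0.584).

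**Figure D3:**
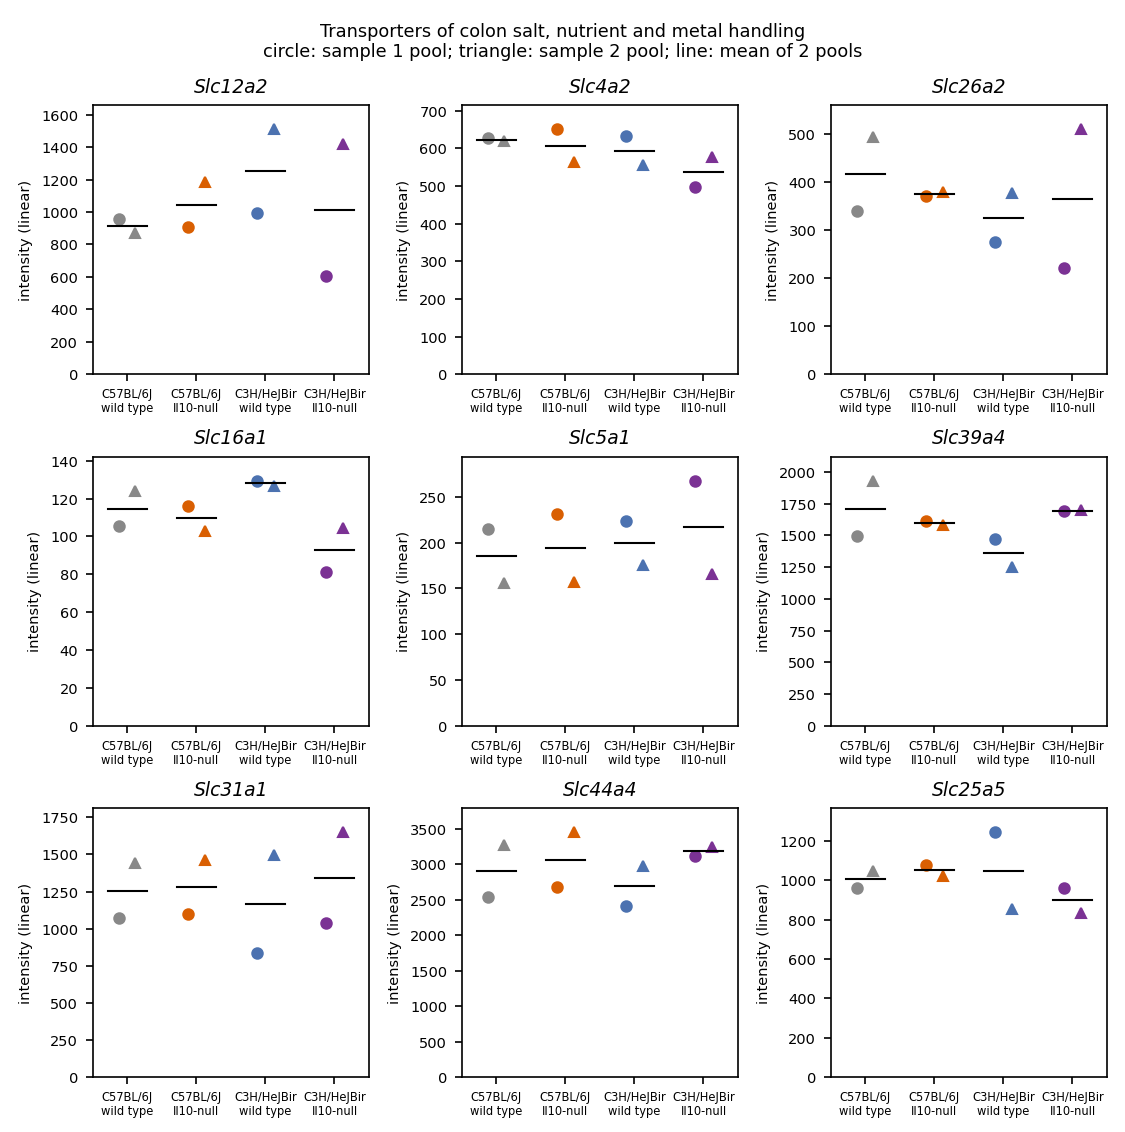
Intensity in each pool (linear axis from 0) of 9 transporter genes with known roles in salt, nutrient, metal and energy handling, 4 groups on the x axis; circles are sample 1 pools, triangles sample 2 pools and lines the mean of 2 pools. Over both genotypes the strains overlap, and over both strains the genotypes overlap, although in C3H/HeJBir alone both Il10-null points lie above wild type for Slc39a4 and Slc44a4 and below it for Slc16a1. For Slc31a1 and Slc44a4 the sample 2 pool lies above the sample 1 pool in every group.

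Among the sugar carriers no gene was called. Slc2a5, the fructose carrier, had the smallest unadjusted p of all transporter genes in the average Il10 comparison. It read 68.2 and 44.9 in C57BL/6J wild type, 9.23 and 34.3 in C57BL/6J Il10-null, 83.5 and 41.4 in C3H/HeJBir wild type, and 16.6 and 29.5 in C3H/HeJBir Il10-null. In each strain both Il10-null pools lay below both wild-type pools, and the average Il10 effect was -1.10 ± 0.32 (95% confidence interval -1.83 to -0.37, adjusted p = 1.00). Most of the difference lay in sample 1, where wild type and Il10-null have separate hybridisation days: -1.97 in C57BL/6J and -1.78 in C3H/HeJBir. Among the sample 2 pools, which share a day, it was -0.30 and -0.37. With the day as a block the average was -0.34, and without the C57BL/6J Il10-null sample 1 pool, where it read 9.23, the C57BL/6J value went from -1.13 to -0.55.

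Slc2a1, the widespread glucose carrier, ranged from 199 to 275 in 7 pools and at 472 in the C3H/HeJBir wild-type sample 2 pool (strain 0.31 ± 0.22). Slc5a1, the sodium-glucose cotransporter, read 156 to 267, higher in sample 1 than in sample 2 in every group, with a strain difference of 0.12 ± 0.23 and an Il10 effect of 0.07 ± 0.23. Slc5a6, which takes up biotin and pantothenate with sodium, differed by 0.31 ± 0.34 between strains. Slc2a4, Slc2a8, Slc37a4 (the glucose-6-phosphate carrier of the endoplasmic reticulum) and Slc50a1 had strain differences of -0.30 to 0.12 and Il10 differences of -0.37 to 0.31. Slc5a1 and Slc5a6 belong to a separate class, sodium-coupled organic solutes. Of the 6 genes in the sugar class, 1 was positive and 5 negative for the average Il10 effect, with a median of -0.19. All 7453 probe sets split into 3536 positive and 3917 negative.

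Slc20a1, a sodium-phosphate cotransporter, had the third smallest p among the genes lower in Il10-null. It read 755 and 906 in C57BL/6J wild type, 547 and 463 in C57BL/6J Il10-null, 1286 and 1122 in C3H/HeJBir wild type, and 308 and 1238 in C3H/HeJBir Il10-null. The average Il10 effect was -0.82 ± 0.38 (adjusted p = 1.00), but the pairs of sample 2 pools, which share a day, gave -0.95 in C57BL/6J and 0.14 in C3H/HeJBir. Without the C3H/HeJBir Il10-null sample 1 pool the average was -0.33, without that group's sample 2 pool -1.32, and with the day as a block -0.41. The epithelial phosphate cotransporter Slc34a2 ranged from 259 to 520.4, with an Il10 effect of 0.12 ± 0.20.

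Slc16a1, the proton-coupled carrier of lactate and butyrate, was the only monocarboxylate carrier past the filter. It read 105 and 124 in C57BL/6J wild type, 116 and 103 in C57BL/6J Il10-null, 129 and 127 in C3H/HeJBir wild type, and 81.2 and 105 in C3H/HeJBir Il10-null. Both C3H/HeJBir Il10-null pools lay below both C3H/HeJBir wild-type pools, with a difference of -0.43 ± 0.23 (adjusted p = 0.999), whereas the C57BL/6J pools overlapped (-0.06 ± 0.23). The strain difference was -0.04 ± 0.16. The fatty acid carriers Slc27a1 and Slc27a4 differed by -0.10 ± 0.30 and -0.05 ± 0.17 between strains and by 0.38 ± 0.30 and -0.18 ± 0.17 for Il10.

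Metal carriers were the second largest class tested, with 13 genes, and none had an unadjusted p under 0.05 in either average comparison. Slc39a4, the zinc importer of the apical membrane, read 1252 to 1928 (strain -0.12 ± 0.16, Il10 0.12 ± 0.16). Slc31a1, the copper importer, read 1069 and 1439 in C57BL/6J wild type, 1097 and 1464 in C57BL/6J Il10-null, 838 and 1493 in C3H/HeJBir wild type, and 1039 and 1648 in C3H/HeJBir Il10-null. Sample 2 was above sample 1 in all 4 groups, and the strain and Il10 effects were -0.05 ± 0.26 and 0.13 ± 0.26. Slc30a4, a zinc carrier of vesicles, read 315 to 409 in C57BL/6J and 345 to 659 in C3H/HeJBir (difference 0.50 ± 0.25, adjusted p = 0.680).

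Slc11a2, the importer of ferrous iron, read 273 and 221 in C57BL/6J wild type, 226 and 132 in C57BL/6J Il10-null, 156 and 136 in C3H/HeJBir wild type, and 158 and 147 in C3H/HeJBir Il10-null, a strain difference of -0.44 ± 0.20 (adjusted p = 0.642). A second tested probe set of Slc11a2 gave a strain difference of the opposite sign, 0.59, so no direction can be given for this gene. Slc30a9 read 53.2 to 53.5 in C57BL/6J wild type and 61.7 to 68.4 in Il10-null, and 61.8 to 72.2 and 72.5 to 79.8 in C3H/HeJBir. Both Il10-null pools were above both wild-type pools in each strain, with an average difference of 0.20 ± 0.15 (adjusted p = 1.00). The zinc carriers Slc30a3, Slc30a5, Slc39a1, Slc39a3, Slc39a7, Slc39a8 and Slc39a9 and the magnesium carrier Slc41a1 had strain differences of -0.40 to 0.27. The class medians were 0.05 for strain and 0.04 for Il10.

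The mitochondrial carriers of family SLC25 were the largest class tested, with 16 genes. Slc25a25, a calcium-regulated carrier of ATP-magnesium and phosphate, read 223 and 209 in C57BL/6J wild type, 254 and 242 in C57BL/6J Il10-null, 142 and 176 in C3H/HeJBir wild type, and 193 and 169 in C3H/HeJBir Il10-null. All C3H/HeJBir pools lay below all C57BL/6J pools, with a difference of -0.43 ± 0.16 (adjusted p = 0.449). The main ADP/ATP carrier of dividing tissue, Slc25a5, read 834 to 1242 (strain -0.10 ± 0.18, Il10 -0.07 ± 0.18), and the ADP/ATP carrier of muscle, Slc25a4, read 429 to 937 (strain 0.26 ± 0.32, Il10 -0.24 ± 0.32). Slc25a20, which brings acylcarnitines into the mitochondrion for fatty acid oxidation, read 1161 and 1589 in C57BL/6J wild type, 1105 and 1642 in C57BL/6J Il10-null, 771 and 1359 in C3H/HeJBir wild type, and 815 and 1408 in C3H/HeJBir Il10-null. Sample 2 was above sample 1 in every group of Slc25a20, and the strain difference was -0.37 ± 0.27. That standard error is from the fit without a block, which counts the sample shift as spread. The 4 pairs of same-numbered pools gave -0.58 and -0.22 in wild type and -0.43 and -0.22 in Il10-null. Slc25a20 was not called under any alternative run.

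The citrate carrier Slc25a1, the dicarboxylate carrier Slc25a10 and the oxoglutarate carrier Slc25a11 had strain differences of -0.12 to 0.05 and Il10 effects of -0.08 to 0.03, all within the spread of the pools. Slc25a15, Slc25a17, Slc25a28, Slc25a36, Slc25a39, Slc25a44, Slc25a45, Slc25a47 and Slc25a51 had strain differences of -0.34 to 0.24. Of these, Slc25a28, a carrier of iron into the mitochondrion, had the smallest p among the genes higher in C57BL/6J Il10-null, 109 to 123 against 71.7 to 93.5 (0.45 ± 0.26, adjusted p = 1.00). The class medians were -0.07 for strain and -0.04 for Il10.

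Family SLC6 carries neurotransmitters, amino acids and osmolytes. Slc6a2, the noradrenaline carrier of sympathetic nerve endings, read 109.8 and 118 in C57BL/6J wild type, 104 and 51.3 in C57BL/6J Il10-null, 70.2 and 71.2 in C3H/HeJBir wild type, and 56.7 and 31.97 in C3H/HeJBir Il10-null. Both Il10-null pools lay below both wild-type pools in each strain, and the average Il10 effect was -0.58 ± 0.24 (adjusted p = 1.00). Unlike Slc2a5, Slc6a2 had its larger differences in the sample 2 pools, which share a day: -1.05 in C57BL/6J and -0.93 in C3H/HeJBir, beside -0.07 and -0.26 in sample 1. The strain difference of Slc6a2 was -0.63 ± 0.24 (adjusted p = 0.476), with overlapping pools. Its 4 pairs of pools of the same day and genotype gave -0.57 and -0.65 in wild type and -0.77 and -0.54 in Il10-null. The Il10 effect of Slc6a2 was -0.35 without the C57BL/6J Il10-null sample 2 pool and -0.99 with the day as a block. Of 12 neuron and glia markers, 11 were on the array and 6 were tested. Between strains 1 was positive and 5 negative (median -0.46), and for the average Il10 effect 1 and 5 (median -0.22), none called. Their sums overlapped, at 847 to 965 in C57BL/6J and 602 to 981 in C3H/HeJBir. The part of these cells in the Slc6a2 values was not tested.

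The serotonin carrier Slc6a4 read 43.6 to 78.5 and differed by 0.23 ± 0.18 between strains and -0.13 ± 0.18 for Il10. The taurine carrier Slc6a6 read 249 to 507, with sample 2 above sample 1 in every group (strain -0.29 ± 0.25). The creatine carrier Slc6a8 read 352 to 621 and the glycine carrier Slc6a9 138 to 233, with strain differences of -0.04 ± 0.22 and -0.17 ± 0.17. Slc6a13, Slc6a18 and Slc6a20b had strain differences of -0.18 to -0.13. Over the 8 genes, 1 was positive and 7 negative between strains, with a median of -0.15, beside 3422 positive and 4031 negative of all 7453 probe sets.

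The carriers of organic ions and bile acids held 2 of the 5 genes with an unadjusted p under 0.05 for the Il10 effect in C3H/HeJBir. Slc22a12, a urate carrier, read 46.7 and 39.8 in C3H/HeJBir wild type and 123 and 61.1 in C3H/HeJBir Il10-null, a difference of 0.86 ± 0.37 (adjusted p = 0.999). It was 1.21 in sample 1 and 0.50 in sample 2, and 0.41 without the Il10-null sample 1 pool. Slc22a23 read 137 and 118 against 71.4 and 92.5, a difference of -0.58 ± 0.24 (adjusted p = 0.999). It was -0.85 in sample 1 and -0.315 in sample 2, which shares a day, and ran from -0.74 to -0.41 over the alternatives. The interactions of Slc22a12 and Slc22a23 were 0.97 ± 0.52 and -0.66 ± 0.34 (limma adjusted p = 0.9995 each). Slc22a5, the sodium-dependent carnitine carrier, read 165 and 136 in C57BL/6J wild type, 62.7 and 113 in C57BL/6J Il10-null, 63.5 and 124 in C3H/HeJBir wild type, and 84.3 and 112 in C3H/HeJBir Il10-null. In C57BL/6J it lay lower in both Il10-null pools, with a difference of -0.75 ± 0.37 (adjusted p = 1.00), and in C3H/HeJBir the pools overlapped (0.11 ± 0.37). The C57BL/6J difference of Slc22a5 was -1.25 in sample 1 and -0.24 in sample 2, which shares a day, and -0.37 without the Il10-null sample 1 pool. The interaction of Slc22a5 was 0.86 ± 0.52 (adjusted p = 1.00), so a difference between the strains was not shown.

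The bile acid carrier of the ileum, Slc10a2, read 21.9 to 64.8 and differed by -0.43 ± 0.23 between strains. Slc10a3, an X-linked relative, read 255 to 287 and 214 to 242 in C57BL/6J wild type and Il10-null, and 292 to 336 and 237 to 253 in C3H/HeJBir. Both Il10-null pools lay below both wild-type pools in each strain (-0.29 ± 0.16, adjusted p = 1.00). Slc22a17, Slc22a18 and Slc22a21 had strain differences of -0.09 to 0.03, and Slc29a1, which carries nucleosides such as adenosine, one of 0.04 ± 0.23. A second tested probe set of Slc29a1 gave -0.23. The interaction of Slc22a17 was -0.83 ± 0.51 (limma adjusted p = 0.9995). Its C3H/HeJBir Il10 difference was -1.34 in sample 1 and 0.11 in sample 2, which shares a day.

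Of the families classed as vitamin carriers, 4 genes were tested, Slc46a1 (proton-coupled folate uptake), Slc19a1 (reduced folate), Slc23a2 (ascorbate) and Slc23a3. The probe sets used gave negative strain and Il10 differences for all 4, none of them called, whereas a second tested probe set of Slc19a1 gave 0.05 and 0.16. Slc5a6, which carries vitamins but belongs to another family, had positive values (0.31 ± 0.34 and 0.09 ± 0.34). Slc46a1 read 91.4 to 142 in C57BL/6J and 34.9 to 104 in C3H/HeJBir (-0.59 ± 0.28, adjusted p = 0.657), where the low end is the Il10-null sample 1 pool and the other 3 pools read 97.8 to 104. The class medians were -0.35 for strain and -0.17 for Il10. Slc44a4, which takes up thiamine pyrophosphate in the colon, read 2540.0 and 3279 in C57BL/6J wild type, 2684 and 3450.1 in C57BL/6J Il10-null, 2415 and 2977 in C3H/HeJBir wild type, and 3116 and 3250.1 in C3H/HeJBir Il10-null, with differences of -0.02 ± 0.18 and 0.16 ± 0.18. The choline carrier Slc44a1 ranged from 486 to 659. Slc48a1, a heme carrier of endosomes, read 118 and 68.5 in C57BL/6J wild type, 102 and 88.8 in C57BL/6J Il10-null, 92.9 and 83.5 in C3H/HeJBir wild type, and 32.05 and 61.99 in C3H/HeJBir Il10-null. Its Il10 effect in C3H/HeJBir was -0.82 ± 0.33 (adjusted p = 0.999) and its interaction -0.89 ± 0.47 (adjusted p = 1.00). The C3H/HeJBir effect was -1.27 in sample 1 and -0.37 in sample 2, and without the Il10-null sample 1 pool it was -0.44 and the interaction -0.51. Without C57BL/6J wild-type sample 2 the interaction was -0.54. Slc66a2 was the steadiest transporter gene of all, at 331 to 373 over the 8 pools.

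In the Il10 comparisons, Slc7a9, the light chain that pairs with Slc3a1, had the smallest p in C3H/HeJBir. It read 134 and 172 in C57BL/6J wild type, 173 and 175 in C57BL/6J Il10-null, 134 and 136 in C3H/HeJBir wild type, and 406 and 231 in C3H/HeJBir Il10-null. The Il10 effect was 1.12 ± 0.29 in C3H/HeJBir (95% confidence interval 0.44 to 1.80, limma adjusted p = 0.999) and 0.18 ± 0.29 in C57BL/6J. The difference between them was 0.94 ± 0.42 (adjusted p = 1.00), so an effect particular to C3H/HeJBir was not shown. The sample 2 pools of C3H/HeJBir, which share a day, differed by 0.72 and the sample 1 pools by 1.52, and without the C3H/HeJBir Il10-null sample 1 pool the effect was 0.73 and the difference between strains 0.55. In that pool Slc3a1 also had its highest value, 260.1, while in the sample 2 pools of C3H/HeJBir Slc3a1 differed by -0.01.

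**Figure D4:**
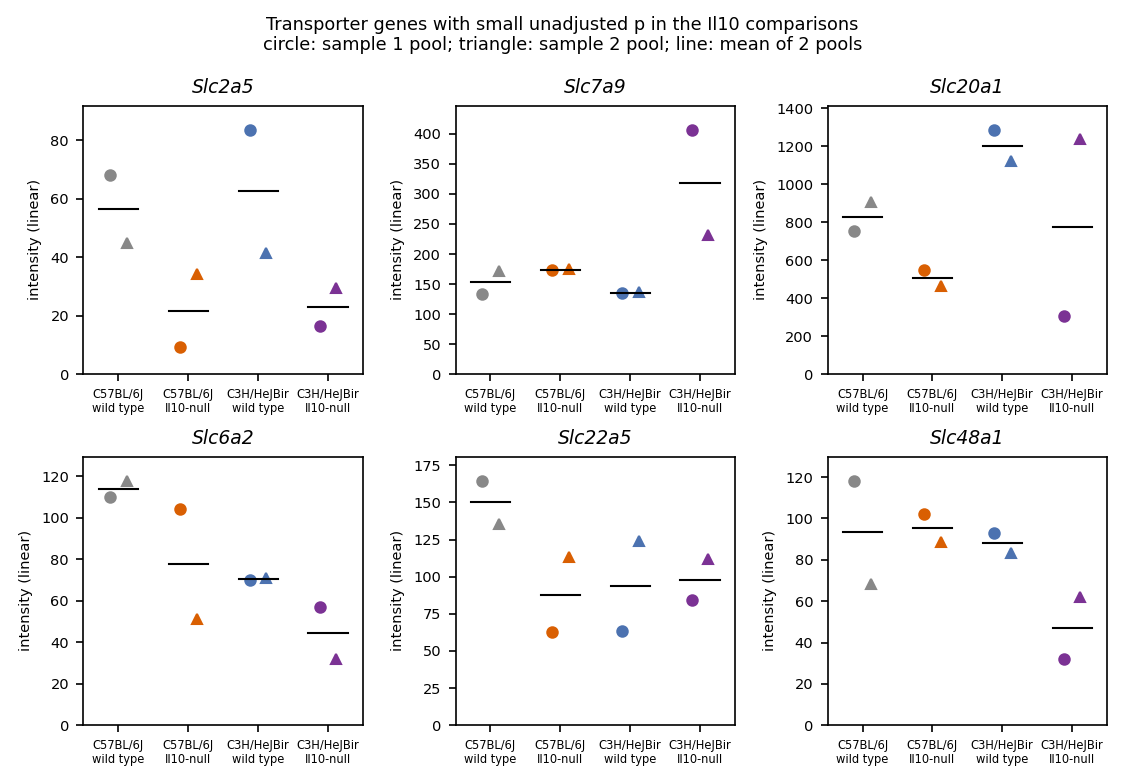
Intensity in each pool (linear axis from 0) of 6 transporter genes with small unadjusted p in an Il10 comparison, none of which was called; circles are sample 1 pools, triangles sample 2 pools and lines the mean of 2 pools. The Il10-null points of Slc2a5 lie below the wild-type points in both strains, and for Slc7a9 and Slc20a1 the C3H/HeJBir Il10-null sample 1 pool (406 and 308) lies furthest from wild type.

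Counts without overlap describe the same data with no model. For 5 transporter genes (4.90%, against 3.81% of all probe sets) all C3H/HeJBir pools lay below all C57BL/6J pools, namely Slc1a5, Slc35d1, Slc38a2, Slc7a7 and Slc25a25. None had all C3H/HeJBir pools above (2.67% of all probe sets). Il10-null lay above wild type in each strain for Slc7a9, Slc38a2 and Slc30a9 (2.94%, against 2.27% of all), and below for Slc2a5, Slc6a2 and Slc10a3 (2.94%, against 1.99%). Among these, Slc2a5 passed the filter only through its wild-type values. No transporter gene had Il10-null above wild type in one strain and below it in the other with no overlap in either (1.38% and 1.09% of all probe sets, by direction). These shares lie near those of the array.

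The C3H/HeJBir Il10-null sample 1 pool held the lowest of the 8 values for 25 of the 102 transporter genes (24.5%, against 20.8% of all probe sets) and the highest for 16 (15.7%, against 19.3%). Among its lowest were Slc12a2, Slc16a1, Slc20a1, Slc8a1, Slc26a2, Slc1a4 and Slc46a1, and among its highest Slc7a9, Slc3a1, Slc7a5, Slc5a1 and Slc9a3r1. Its marker sums lay outside the range of the other 7 pools for exocrine pancreas (5648 against 1593 to 4003, with 9 of 19 markers on the array, all tested), neutrophils (1021 against 291 to 434, with 8 of 8 on the array and 3 tested), macrophages (5633 against 1587 to 3753), fibroblasts (3586 against 4955 to 6583, 9 of 9 tested) and smooth muscle, given above. The same held for epithelial lists: colonocytes (48149 against 37554 to 44501), enteroendocrine cells (868 against 1287 to 1908) and small intestinal enterocytes (1439 against 1875 to 2767, with 9 of 13 markers on the array and 5 tested). Such a sum need not stand for its list. The colonocyte marker Aqp8 read 989.55 in this pool and 935.04 to 2249.82 in the others. The Il10 effect in C3H/HeJBir averages this pool with sample 2. It was positive for 8 and negative for 3 tested colonocyte markers, and 4 and 4 for macrophages. Other lists went mostly 1 way: positive for 2 and negative for 7 fibroblast markers, the same for smooth muscle, and negative for all 8 enteroendocrine markers tested. For small intestinal enterocytes it was positive for 1 and negative for 4, and for exocrine pancreas positive for 6 and negative for 3. No marker of these 5 lists was called. For neutrophils it was positive for 2 and negative for 1, from -0.70 (Csf3r) to 1.51 (S100a8). The 40 non-SLC transport genes described below summed to 33778 in this pool and to 38179.9 to 44289 in the others. The part of these cells in the transporter values of that pool was not tested. Without both sample 1 Il10-null pools, Slc1a5 had an adjusted p of 0.0294.

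The pools of sample 1 and sample 2 were compared too. In the fit with the sample number as a block, added after the data were seen, 0 of 102 were called by limma for sample 2 minus sample 1 (0.148% of all probe sets, 0.0939% higher and 0.0537% lower in sample 2), and the smallest p-values were those of Slc23a3 at -0.87 and Slc25a45 at -1.17 (adjusted p = 0.0894 each). Slc23a3 read 639.8, 447, 582 and 495 in sample 1 and 256 to 332 in sample 2. Sample 1 and sample 2 also differ in hybridisation day and in Xist and Eif2s3y, so these cannot be told apart.

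The spread over pools, whatever its source, was summarised by gene. The median ratio of the highest to the lowest of the 8 intensities was 2.04 for the 102 genes and 1.90 for all tested probe sets. The ratio was under 2 for 48 transporter genes, or 47.1%, against 56.0% of all.

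A second probe set past the filter was there for 13 transporter genes. The sign of the average strain difference matched in 7 of them and that of the average Il10 effect in 6. The copper importer Slc31a1 gave -0.05 and 0.10 between strains, the ADP/ATP carrier Slc25a5 -0.10 and -0.22, and the taurine carrier Slc6a6 -0.29 and -0.10. For the strain difference the widest disagreement among the 13 was that of Slc11a2, given above. For the average Il10 effect it was that of Slc29a1, at -0.35 and 0.21.

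Other proteins of epithelial transport, namely ion pumps, channels, carbonic anhydrases, aquaporins and regulators outside the solute carriers, were listed by role: 60 genes, 40 of them on the array and 36 tested. None was called in any of the 7 comparisons, and 4 had an unadjusted p under 0.05 between strains, 11.1% beside 8.43% of all probe sets. The smallest of these was that of Sgk1, a kinase that stimulates epithelial sodium transport, which read 1247 and 1488 in C57BL/6J wild type, 1801 and 907 in C57BL/6J Il10-null, 771 and 866 in C3H/HeJBir wild type, and 466 and 635 in C3H/HeJBir Il10-null. The C3H/HeJBir values of Sgk1 lay below the C57BL/6J values, with a difference of -0.97 ± 0.24 (adjusted p = 0.164). The chloride channel Cftr differed by 0.44 ± 0.22, the water channel Aqp8 by 0.09 ± 0.36 and the carbonic anhydrase Car4 by -0.03 ± 0.17.

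The remaining 48 transporter genes did not pass the filter, with means of 1.34 to 36.5, and were not tested. Among them were Slc15a2, a peptide carrier, with a mean of 36.5, the zinc exporter Slc30a1 (32.96), the cystine-glutamate exchanger Slc7a11 (5.46), the arginine carriers Slc7a1 (11.8) and Slc7a2 (13.8) and the organic cation carrier Slc22a4 (10.8). Slc11a1, the metal carrier of phagosomes in macrophages, had a mean of 26.4, 10.8 to 37.1 in C57BL/6J and 17.4 to 39.6 in C3H/HeJBir. A low value on this array says little of the level of the RNA, since probe sets differ in how strongly they bind. Of 69 transporters listed for their roles in the colon, 52 had a probe set under their symbol and 44 were tested. The 17 others, among them the chloride-bicarbonate exchanger Slc26a3, the sodium-proton exchangers Slc9a2 and Slc9a3 and the butyrate carrier Slc5a8, were not analysed here.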

How the data were processed

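RNA of whole mouse colon from 8 pools was measured on MG_U74Av2 arrays. The intensity values are as deposited, linear, and lie between 0.03 and 12860, and the authors had brought the arrays to a common level, since trimmed means differed by a ratio of 1.01. The sources used here do not give how probe pairs were summarised, background corrected or called present, so faint and absent RNAs are not separated. No probe set was removed as a control.

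From these values, log2(intensity + 11.1) was computed, with the 20th percentile of all values as the added constant. The test was limma's moderated test (version 3.58.1, run under R 4.3.3, with Benjamini-Hochberg adjustment) with 4 group means, no block, 4 residual and 4.23 prior degrees of freedom, and every p in the text is from this limma fit or from the alternative named beside it. A self-test on simulated data for the average strain effect, with 200 of 7453 probe sets changed, recovered 33.5% of changes of log2 1 and 90.0% of changes of log2 2.

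Gene names are those of the platform annotation, of which 10817 matched RefSeq (GRCm38.p6) symbols. The substrate class follows the family number. Named genes are, for each comparison, those called and, in a direction with none, the 3 of smallest p, plus a list of transporters with roles in the colon; other genes were named after their values were seen. The rule for members reads symbols alone, but this gene family, the lists and the tests were chosen with earlier results of these data known. Alternatives covered the added constant, the filter, normalization, moderation, blocks, averaging of probe sets and leaving out pools.

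Same-numbered pools deviated together from their group means, with correlations of 0.198 to 0.332 across the 6 group pairs, and the sample number was therefore taken to pair the pools. The main fit has no block, so its standard errors and p-values do not use this pairing. The fit with this block is given beside a call it changes. Standard errors changed too: for the average strain difference from 0.268 to 0.166 for Slc1a5 and from 0.238 to 0.147 for Slc35d1. The labels do not say what the sample number stands for.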

Additional observations from a re-analysis of the deposited data

How the results depend on the processing

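The counts of called transporter genes for the 6 comparisons other than the average strain effect were 0 under every alternative run. For the average strain effect the count was 1, beside 83 of all 7453 probe sets. It became 2, with Slc35d1 joining Slc1a5, under an added constant at the 50th percentile (114 of all 7453 probe sets called) and a filter at the 60th percentile (85 of 4969). The same held for moderation with trend and robust settings (113 of 7453), averaged probe sets (76 of 6212 tested) and a threshold of 0.1 (115 of 7453). It also held with hybridisation day as a block, where fewer probe sets were called over the array (64 of 7453). The count became 0 with no filter on low values, where 12422 probe sets are tested and 61 of these were called. Leaving out 1 pool at a time gave 0 to 2 called. With the sample number as a replicate block, which pairs the pools, the count was 2, beside 96 of all 7453 probe sets. The block changed no other call of a transporter gene. Among 122 single-gene results, 2146 values under alternatives kept their direction and side of the threshold, 154 that were not called changed sign (smallest adjusted p 0.874), and 6 lost a call, all of Slc1a5. With 1 array for each of 2 pools per group, and no detection calls in the values used, the number of arrays limits what could be called.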
